A study of Mus musculus with 2 samples.

Results

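The serine/arginine-rich (SR) proteins and the heterogeneous nuclear ribonucleoproteins (hnRNPs) were followed through their transcripts in a pair of YFP-marked CD4+ T cell populations of the mouse. The members are all protein-coding genes whose symbol starts with Srsf and a digit, 11 genes, or with Hnrnp, 20 genes. They make 31 of the 41592 rows of the table, and symbols marked as pseudogenes were left out. The cells came from spleen and lymph node of C57BL/6 animals that were 6 to 8 weeks old. These animals carried the transgene Foxp3 ΔCNS1-Cre, in which Foxp3 regulatory DNA lacking the conserved element CNS1 drives Cre, and a Rosa26-YFP reporter, so that YFP also stays on in the descendants of a cell that once made Cre. After bead enrichment for CD4+ cells, YFP+ cells were sorted either without Thy1.1 (here the negative library) or with it (the positive library), and the labels give a purity above 97% as typical. Each population is 1 library, and how many animals it holds is not stated in the sources used here. The series is about thymus-derived Treg cells and precursors of exFoxp3 cells, which have lost Foxp3; its design text lists one and the same marker pair for both, so the populations are named here by their stain alone.

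SR proteins bind exons through RNA recognition motifs and recruit the splicing machinery through a tail rich in arginine and serine, which mostly favours inclusion of the exon. The hnRNPs coat nascent transcripts, and many of them oppose SR proteins by silencing exons. Members of both families also act in mRNA export, stability and translation. In T cells, hnRNPLL silences the variable exons of Ptprc, which encodes the phosphatase CD45, and so shifts activated and memory cells to the shortest CD45 isoform.

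Levels are FPKM values, fragments per kilobase of gene length scaled to library size. Library totals and reads per gene were inferred from the FPKM values. The inferred totals were 18536339 reads for the negative and 18600581 for the positive library. Reads recovered for genes above 0 in both libraries summed to 18565486 and 18624192, which exceeds these totals. The reads of some genes may therefore be too many, and their intervals too narrow. Where a pair of values is given, the negative library comes first. Every difference is negative minus positive on the log2(FPKM + 1) scale, and every ratio is negative over positive FPKM. With 1 library a population there is no replicate check and no test. The range in brackets after a ratio is an exact Clopper-Pearson 95% interval on the reads behind it, which covers counting error only and says nothing of the spread between animals, sorts or library preparations. In bulk RNA, fewer cells of a type and less RNA per cell cannot be told apart.

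The 5 markers of the sorted cells were high in both libraries. Cd3e had 292 and 248 FPKM, Cd4 471 and 327, Ctla4 1156 and 1105, Foxp3 158 and 237, and Il2ra 98.8 and 205. Il2ra was lower in the negative library, with a ratio of 0.482 (0.466 to 0.499), and alone of the 5 passed 1.5-fold. Its difference lay at percentile 1.002 of all genes tested. Foxp3 was also lower there, with a ratio of 0.670 (0.647 to 0.693). The other 3 were higher there, with ratios of 1.18 for Cd3e, 1.44 for Cd4 and 1.05 for Ctla4. Of the B cell markers, Cd79b had 6.45 and 3.97 FPKM and Cd22 5.59 and 2.60 FPKM, both higher in the negative library, with ratios of 1.62 (1.253 to 2.11) and 2.15 (1.67 to 2.78). Cd79a had 1.63 and 2.07 FPKM and Ms4a1 0.0935 and 0.0745 FPKM. The summed level of 4 myeloid markers was 4.79 and 0.666 FPKM, of which Itgam made 4.17 and 0.272, with Lyz2 at 0.298 and 0.212 FPKM. The 2 CD8 T cell markers summed to 4.78 and 4.49 FPKM, the 2 NK cell markers to 2.08 and 0.663 FPKM with Ncr1 listed at 0 in the negative library, and the 2 erythroid markers to 1.29 and 3.41 FPKM. The 3 stromal and endothelial markers summed to 86.7 and 64.2 FPKM, nearly all of it Pecam1, with Cdh5 at 0.135 and 0.0405 FPKM. What part such cells have in the values of the members was not tested.

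Promoters are shown for genes at the ends of the order of differences that have 1 start site in RefSeq. Srsf1 and Srsf9 had the highest ratios of the SR genes, and Hnrnpa1 and Hnrnph3 the lowest of all members. Each sequence is the 250 bases before the annotated start, 5′ to 3′ on the gene's strand, from RefSeq on build GRCm38.p6: chr11:88047123-88047372 on the plus strand for Srsf1, chr5:115326927-115327176 on the plus strand for Srsf9, chr15:103240147-103240396 on the plus strand for Hnrnpa1 and chr10:63023850-63024099 on the minus strand for Hnrnph3. Capitals mark matches on either strand to the GC box GGGCGG, to CCAAT or to the NRF1 motif.
Srsf1: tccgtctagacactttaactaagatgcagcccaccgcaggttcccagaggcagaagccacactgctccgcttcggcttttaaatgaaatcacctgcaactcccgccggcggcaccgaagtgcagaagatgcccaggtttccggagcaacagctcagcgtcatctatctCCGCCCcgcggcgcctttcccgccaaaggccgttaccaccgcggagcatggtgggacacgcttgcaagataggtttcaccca
Srsf9: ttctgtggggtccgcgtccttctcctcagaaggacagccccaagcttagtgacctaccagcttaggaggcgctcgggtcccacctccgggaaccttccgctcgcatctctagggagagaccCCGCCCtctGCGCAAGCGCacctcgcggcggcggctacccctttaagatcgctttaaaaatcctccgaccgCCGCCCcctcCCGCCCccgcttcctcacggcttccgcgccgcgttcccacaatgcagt
Hnrnpa1: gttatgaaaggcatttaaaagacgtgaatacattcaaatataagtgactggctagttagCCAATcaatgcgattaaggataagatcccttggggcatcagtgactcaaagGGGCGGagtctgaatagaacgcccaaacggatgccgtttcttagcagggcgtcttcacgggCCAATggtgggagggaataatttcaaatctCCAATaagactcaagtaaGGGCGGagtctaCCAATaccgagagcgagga
Hnrnph3: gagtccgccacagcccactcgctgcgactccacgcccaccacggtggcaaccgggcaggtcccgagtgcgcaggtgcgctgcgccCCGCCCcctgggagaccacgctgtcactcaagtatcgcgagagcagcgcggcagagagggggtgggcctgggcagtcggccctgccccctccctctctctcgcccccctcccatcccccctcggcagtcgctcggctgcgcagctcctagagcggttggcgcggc
The sequence of Hnrnpa1 holds 4 CCAAT and 2 GC box matches and has 46% G and C, against 58.8% for Srsf1, 65.2% for Srsf9 and 73.6% for Hnrnph3. Over the families, RefSeq windows were matched to all 11 SR genes and to 18 hnRNP genes, all but Hnrnpll and Hnrnpul2. CCAAT lay before 13 of the 18 hnRNP genes, 72.2%, and 3 of the 11 SR genes, 27.3%, beside 40.6% of the 8525 protein-coding genes that averaged 1 FPKM or more and had a window, and 37.5% of all genes of the RefSeq table. For the GC box the shares were 77.8% of the hnRNP genes, 90.9% of the SR genes, 64.9% of those expressed genes and 35.4% of all. The NRF1 motif lay before 4 SR and 2 hnRNP genes, beside 10.1% of the expressed genes and 4.23% of all, and the ETS motif CCGGAAG also before 4 and 2, beside 17.3% and 7.83%. The E-box CACGTG was found for 3 members and TATAAA for 3, beside 10.1% and 7.25% of the expressed genes and 6.86% and 14.3% of all. The cyclic AMP response element TGACGTCA was found for none, beside 3.21% and 1.77%. A gene with several starts counts once if any window matched, overlapping matches of different motifs were each counted, and a match is a stretch of letters, not a shown binding site.

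As families, the SR and the hnRNP genes stood at nearly the same level in both libraries. The 11 SR genes summed to 1931 and 1991 FPKM, a ratio of 0.970, and the 20 hnRNP genes to 4857 and 4944 FPKM, a ratio of 0.982. Together the members held 1.13% and 1.16% of all FPKM. None of the 31 members was higher or lower in the negative library by 1.5-fold, the size taken as a call, while 5.81% of the 12820 genes that averaged 1 FPKM or more were higher and 3.85% lower. None passed 2-fold either, beside 1.93% and 1.15% of those genes. Every member averaged 1 FPKM or more and so was counted.

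**Figure D1:**
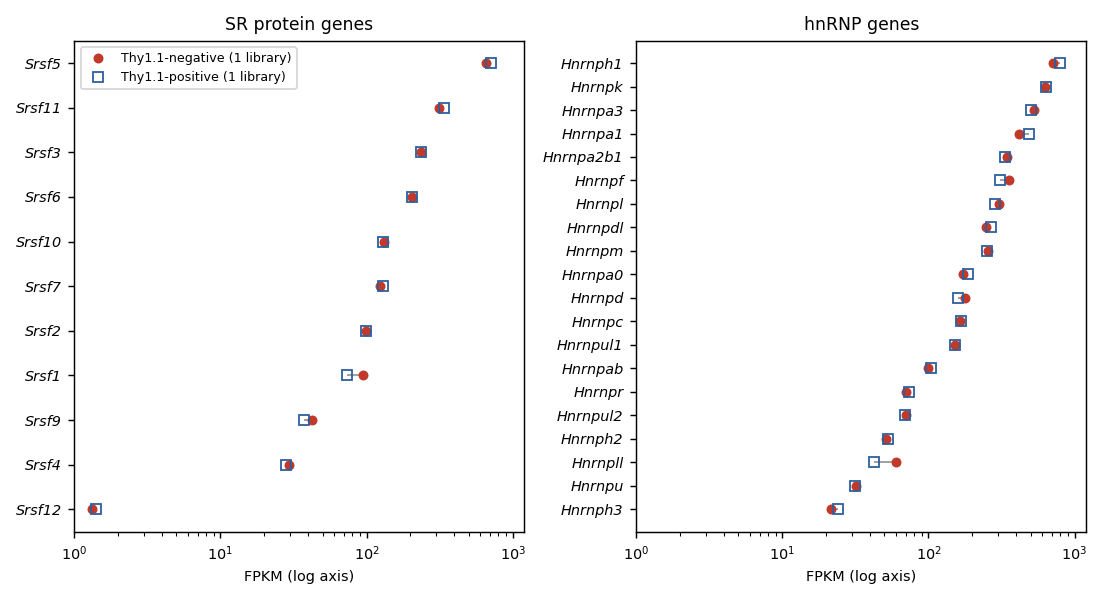
FPKM of each SR gene (left) and hnRNP gene (right) in the Thy1.1-negative library (filled circles) and the Thy1.1-positive library (open squares), 1 library each, on a log axis, with no error bars. Most pairs of symbols overlap, and the pairs of Hnrnpll, 59.7 and 42.6 FPKM, and Srsf1, 93.9 and 74.1 FPKM, stand visibly apart.

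Differences of the members were small beside those of other genes. The median was 0.01 over the SR genes and -0.02 over the hnRNP genes, against 0.03 over all genes tested. The absolute difference had a median of 0.06 over the members, 0.18 over all genes, and 0.15 over the 5115 genes that averaged at least 20 FPKM, a level that 30 of the 31 members reached. A lower limit of 25% higher, or lower by the same factor, was passed by 2 members, Hnrnpll and Srsf1, both higher in the negative library. By that limit 15.2% of all genes were higher and 10.7% lower, and 74.1% lay within it. Among genes that averaged at least 20 FPKM, 28 of the 30 members lay within it, beside 82.7% of all genes at that level, with 11.4% higher and 5.92% lower. Above 0 lay 16 members and below it 15, beside 55.1% of all genes above 0. Above the median of all genes tested lay 9 of the 31 members, beside 6410 of the 12820 genes. With the median gene that averaged at least 5 FPKM set to 0, 9 members lay above 0 and 22 below. Directions are those of the FPKM as deposited: with equal upper quartiles, which moved the median of all genes by 0.23, all 31 members lay above 0, and Hnrnpll at 0.73 and Srsf1 at 0.59 then passed 1.5-fold.

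**Figure D2:**
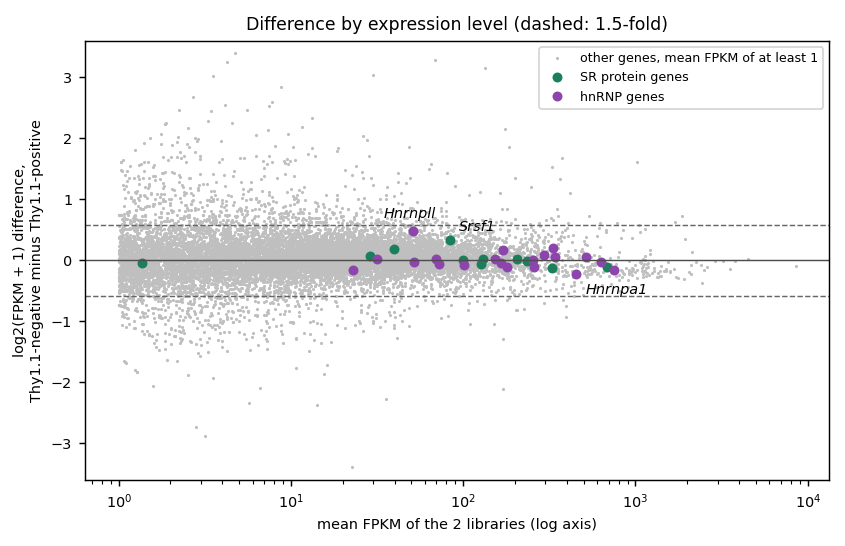
Difference in log2(FPKM + 1), Thy1.1-negative minus Thy1.1-positive, against the mean FPKM of the 2 libraries on a log axis, for SR genes (green), hnRNP genes (purple) and all other genes averaging 1 FPKM or more (grey), with dashed lines at 1.5-fold. The members lie between the dashed lines, from -0.23 for Hnrnpa1 to 0.48 for Hnrnpll.

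Of the SR genes, Srsf1 (ENSMUSG00000018379) differed most. It encodes the founding SR protein, which also acts in translation and mRNA surveillance. Srsf1 had 3039 reads and 93.9 FPKM in the negative library, and 2405 reads and 74.1 FPKM in the positive one. The ratio was 1.27 (1.202 to 1.34), and its difference of 0.34 lay at percentile 85.8 of all genes tested. Srsf9, its closest relative in domain structure, had 42.1 and 37.0 FPKM, with a ratio of 1.14 (1.01 to 1.28). Both were thus higher in the negative library by more than counting error, Srsf9 only just. The level of Srsf1 was 2.23 times that of Srsf9 in the negative and 1.9996 times in the positive library, and the quotient of these, 1.11 (0.984 to 1.26), was not apart from 1 beyond counting error.

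Srsf4, Srsf5 and Srsf6 share a domain layout. Srsf5, the most abundant SR transcript, had 656 and 712 FPKM, 34.0% and 35.8% of the summed SR level, and its ratio was 0.921 (0.903 to 0.939). Srsf6 hardly differed, with 206 and 204 FPKM and a ratio of 1.01 (0.979 to 1.05). Srsf4, the least abundant of the set, had 29.5 and 28.2 FPKM and a ratio of 1.05 (0.956 to 1.15). Srsf5 was thus lower in the negative library, while the intervals of Srsf4 and Srsf6 held 1. Srsf11, an SR-related protein that associates with the spliceosome, was second among the SR genes by FPKM, with 313 and 342. Its ratio, 0.915 (0.888 to 0.944), was the lowest of the SR genes.

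The remaining SR genes were close to level. Srsf3, a small SR protein that adapts mRNA to its export receptor, had 235 and 236 FPKM and a ratio of 0.995 (0.967 to 1.02). Srsf7, a related export adaptor with a zinc knuckle, had 124 and 129 FPKM and a ratio of 0.961 (0.925 to 0.998). Srsf2, also known as SC35, had 99.6 and 99.1 FPKM and a ratio of 1.01 (0.949 to 1.07). Of these, Srsf7 alone had an interval that left out 1, and only just. Srsf10, a splicing repressor once it is dephosphorylated, had 132 and 129 FPKM and a ratio of 1.02 (0.975 to 1.06). Its relative Srsf12 was barely present, with 46 and 49 reads at 1.32 and 1.398 FPKM, and its ratio of 0.942 (0.616 to 1.44) sets no close limit on a difference.

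**Figure D3:**
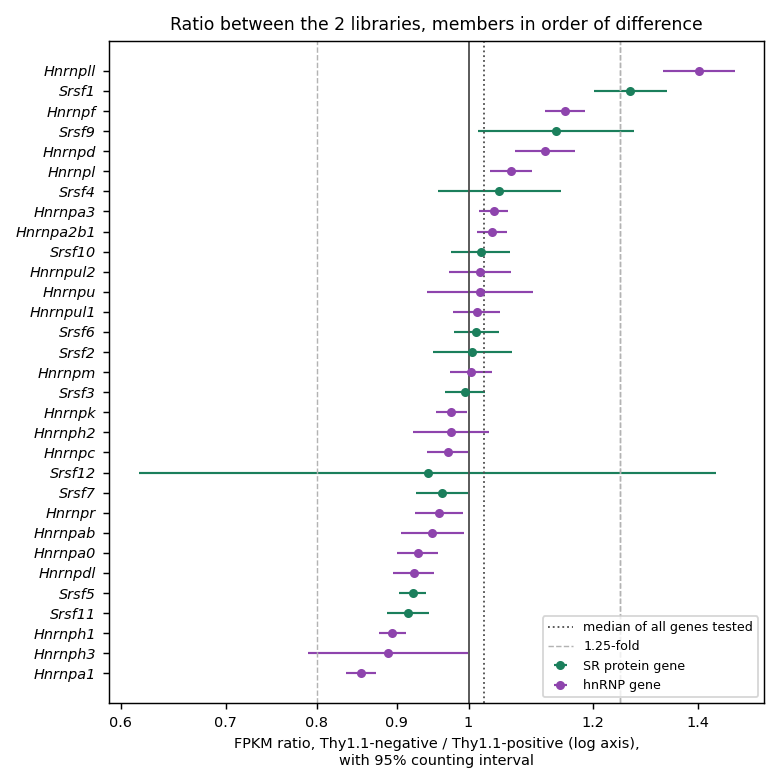
Ratio of FPKM, Thy1.1-negative over Thy1.1-positive, for the 31 members in order of difference, on a log axis; points are ratios, bars 95% counting intervals from the recovered reads, the solid line marks 1, the dotted line the median gene and the dashed lines a ratio 25% above 1 and its inverse. Hnrnpll and Srsf1, with ratios of 1.402 and 1.27, stand to the right of the upper dashed line, and Hnrnpa1, at 0.854, is the lowest.

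Hnrnpll (ENSMUSG00000024095), the silencer of the variable CD45 exons named above, had the largest difference of all members. It had 3346 reads and 59.7 FPKM in the negative library, and 2395 reads and 42.6 FPKM in the positive one. The ratio was 1.402 (1.33 to 1.48), and its difference of 0.48 lay at percentile 91.5 of all genes tested. Its paralogue Hnrnpl, which binds CA-rich RNA and also acts on Ptprc, differed far less, with 306 and 287 FPKM and a ratio of 1.06 (1.03 to 1.097). The level of Hnrnpll relative to Hnrnpl was 0.195 in the negative and 0.148 in the positive library, and the quotient of these was 1.32 (1.24 to 1.4001). Ptprc itself had 669.6 and 577 FPKM and a ratio of 1.16 (1.14 to 1.18), and a value per gene does not show which CD45 exons were included.

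Within the A/B group of hnRNPs, Hnrnpa1 (ENSMUSG00000046434), a shuttling exon silencer, and Hnrnpa0 were lower in the negative library, and the other 2 genes slightly higher. Hnrnpa1 had 14282 reads and 419 FPKM in the negative library, and 16781 reads and 491 FPKM in the positive one. Its ratio of 0.854 (0.835 to 0.873) was the lowest of the members, and its difference of -0.23 lay at percentile 16.3 of all genes tested. Hnrnpa3 had 526 and 507 FPKM and a ratio of 1.04 (1.02 to 1.06). Hnrnpa2b1, which binds and sorts mRNA and microRNA, had 345 and 334 FPKM and a ratio of 1.03 (1.01 to 1.06). With the smallest whole numbers in its ratio of reads the interval held 1, but those numbers do not give a length of whole bases. Hnrnpa0, which binds AU-rich elements, had 174 and 187 FPKM and a ratio of 0.928 (0.901 to 0.955). Taken relative to Hnrnpa1, the quotient of the ratios was 1.21 (1.18 to 1.253) for Hnrnpa3, 1.21 (1.17 to 1.2505) for Hnrnpa2b1 and 1.09 (1.05 to 1.13) for Hnrnpa0.

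The F/H group, whose proteins bind runs of G, was split as well. Hnrnph1, the most abundant member by FPKM, was lower in the negative library, with 707 and 791 FPKM and a ratio of 0.894 (0.877 to 0.912). Hnrnpf was higher there, with 355 and 308 FPKM and a ratio of 1.15 (1.12 to 1.19). The level of Hnrnpf relative to Hnrnph1 was 0.502 in the negative and 0.390 in the positive library, and the quotient of these was 1.29 (1.24 to 1.34). Hnrnph3 lay on the side of Hnrnph1, with 21.5 and 24.2 FPKM and a ratio of 0.889 (0.790 to 0.999). X-linked Hnrnph2 was near level, with 51.3 and 52.7 FPKM and a ratio of 0.974 (0.921 to 1.03).

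In the D group, Hnrnpd, which encodes the mRNA decay factor AUF1, was higher in the negative library, with 179 and 159.96 FPKM and a ratio of 1.12 (1.07 to 1.17). Its relatives were lower there. Hnrnpdl had 247 and 268 FPKM and a ratio of 0.923 (0.895 to 0.951), and Hnrnpab 98.9 and 104 FPKM and a ratio of 0.948 (0.906 to 0.993). The quotient of the ratios of Hnrnpd and Hnrnpdl was 1.21 (1.15 to 1.28). In the U group, named for the nuclear scaffold protein that Hnrnpu encodes, the intervals of all 3 genes held 1. Hnrnpu had 32.0 and 31.5 FPKM and a ratio of 1.02 (0.940 to 1.0998), Hnrnpul1 153 and 151 FPKM and a ratio of 1.01 (0.978 to 1.05), and Hnrnpul2 70.1 and 69.0 FPKM and a ratio of 1.02 (0.971 to 1.06).

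The hnRNPs without a close relative among the members were all near level. Hnrnpk, a KH-domain protein that binds C-rich RNA and DNA, had 625 and 641 FPKM and a ratio of 0.975 (0.953 to 0.998). Hnrnpc, which binds runs of U, had 163 and 168 FPKM and a ratio of 0.970 (0.941 to 0.999). Hnrnpm, a splicing factor that binds GU-rich RNA, had 254 and 253 FPKM and a ratio of 1.004 (0.974 to 1.04). Hnrnpr, an RNA-binding protein, had 70.6 and 73.7 FPKM and a ratio of 0.958 (0.925 to 0.993), and of these 4 genes only Hnrnpm had an interval that held 1. With the smallest whole numbers in their ratios of reads, the intervals of Hnrnpk and Hnrnpr held 1 as well. For Hnrnpk those numbers do not give a length of whole bases, and for Hnrnpr they do.

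Over all members, the counting interval lay above 1 for 8 and below 1 for 12, beside 27.4% above and 19.2% below among the genes tested with reads in both libraries. Reads per member ranged from 46, for Srsf12, to 21134, for Srsf5, and where they are many, small differences pass counting error. Among genes that averaged at least 20 FPKM the shares were 36.6% and 27.1%. Of the 13 members that averaged at least 200 FPKM, 7 lay below 0, beside 59.9% of the 466 genes at that level. The balance between relatives does not depend on how the libraries are scaled. In 25 pairs of members within 9 subfamilies, formed after the values were seen and each ordered so that the gene with the higher difference came first, 14 had a quotient of ratios whose interval lay above 1. The quotient was at least 25% above 1 for 3 pairs, Hnrnpll and Hnrnpl, Hnrnpf and Hnrnph3, and Hnrnpf and Hnrnph1. Ordering the pairs in this way puts nearly every quotient above 1 in advance. The same counts were not made for pairs of other genes, so they do not set the members apart.

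The order of the levels was much the same in both libraries. Hnrnph1, Srsf5, Hnrnpk, Hnrnpa3 and Hnrnpa1 led it in both, and Srsf9, Hnrnpu, Srsf4, Hnrnph3 and Srsf12 closed it. Of the 30 steps between neighbours, 8 in the negative and 7 in the positive library joined genes whose counting intervals overlapped, among them Hnrnpu and Srsf4 in both. By FPKM, Hnrnpll stood above Hnrnph2 in the negative library and below it in the positive one, with no overlap of intervals in either. FPKM divides by a gene length that, for 16 of the 31 members, was within 1 base of the mean of the annotated transcripts, and this sets part of the order. With recovered reads divided by the longest annotated protein-coding transcript, a calculation added after the data were seen, 8 of the 10 highest members by the mean of the 2 libraries were the same. By that mean, Hnrnpa2b1 then stood in place 2 instead of 6, and Hnrnpd in place 24 instead of 15. For Hnrnpa2b1 that transcript has 1728 bases, fewer than the 2465 implied by its FPKM, so its rise comes with a shorter divisor. For Hnrnpd it has 6811 bases, against 1255 implied.

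Like most expressed protein-coding genes, many members are annotated with transcripts that do not encode the full protein. SR and hnRNP genes are known to limit their own output through such transcripts, which carry a premature stop and are degraded. In GENCODE M21, 9 of the 11 SR genes and 10 of the 20 hnRNP genes have a transcript marked for nonsense-mediated decay, beside 30.4% of the 10657 protein-coding genes tested and 33.2% of those that averaged at least 20 FPKM. A retained-intron transcript is annotated for 22 of the 31 members, beside 61.5% and 69.2% of those genes. At least 1 of the 2 kinds is annotated for 24 members, 77.4%, beside 67.4% and 74.0%. Hnrnpk has 34 annotated transcripts, 13 of them with a retained intron, and Srsf11 has 19, of which 11 are of that kind. Srsf1 has 2 decay transcripts and Hnrnpll 1, and the FPKM of a gene does not separate these from the productive ones.

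Copies and overlaps touch some of the values. By sequence search, 77 annotated pseudogenes matched 15 members at 90% identity or more over at least 200 bases, 35 of them Hnrnpa3 and 18 Hnrnpa1. Copies of Hnrnpa3 in the table summed to 7.94 and 9.82 FPKM, and those of Hnrnpa1 to 1.15 and 1.79 FPKM. The 1 copy of Hnrnpc had 8.94 and 8.49 FPKM, beside 163 and 168 FPKM for Hnrnpc itself. How reads that match several places were counted is not stated in the sources used here, so the levels of genes with copies are uncertain to that extent. Exons of 14 members overlap those of another annotated gene, 7 of them a protein-coding one. Without strand, reads from such stretches cannot be told apart, and Mettl23, which overlaps Srsf2 on the opposite strand, had 47.6 and 39.3 FPKM.

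Genes that work beside the members were mostly close to level too, and the highest and lowest of each list are named by difference. Of 13 hnRNPs that go by other names, 7 lay above 0 and none passed 1.5-fold, with a median of 0.05. The highest, Ptbp3, a paralogue of Ptbp1, had 195 and 159.5 FPKM and a ratio of 1.22 (1.18 to 1.27). The lowest, Cirbp, a cold-inducible RNA-binding protein, had 115 and 149 FPKM and a ratio of 0.775 (0.726 to 0.827). Ptbp1, an exon silencer that acts with Hnrnpa1 and Hnrnpa2b1 on Pkm, had 463.5 and 538 FPKM and a ratio of 0.862 (0.840 to 0.884). Pkm, which encodes pyruvate kinase and has a pair of mutually exclusive exons, had 337 and 259.7 FPKM and a ratio of 1.297 (1.27 to 1.33), and its exon choice cannot be read from a value per gene.

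Of 15 kinases, importers and phosphatases that set the phosphorylation and nuclear entry of SR proteins, 1 was higher by 1.5-fold and none lower, with a median of -0.06. That gene was Ppp1ca, a catalytic subunit of protein phosphatase 1, with 229 and 149 FPKM and a ratio of 1.53 (1.47 to 1.60). The lowest, Dyrk1a, a kinase of splicing factors, had 114 and 128 FPKM and a ratio of 0.889 (0.859 to 0.920). Among 40 other splicing regulators that averaged 1 FPKM or more, 13 lay above 0 and the median was -0.07. Mbnl3, of the muscleblind family, was lower by 1.5-fold, with 13.6 and 23.6 FPKM and a ratio of 0.579 (0.521 to 0.642). Nono, a paraspeckle protein, was the highest of them, with 323 and 267 FPKM and a ratio of 1.21 (1.17 to 1.26). Among 45 core spliceosome genes, 17 lay above 0, none passed 1.5-fold and the median was -0.01. Snrpa, of the U1 particle, was highest with 38.6 and 29.4 FPKM and a ratio of 1.31 (1.17 to 1.47), and Sf3a2, of the U2 particle, lowest with 78.3 and 97.2 FPKM and a ratio of 0.806 (0.752 to 0.864).

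**Figure D4:**
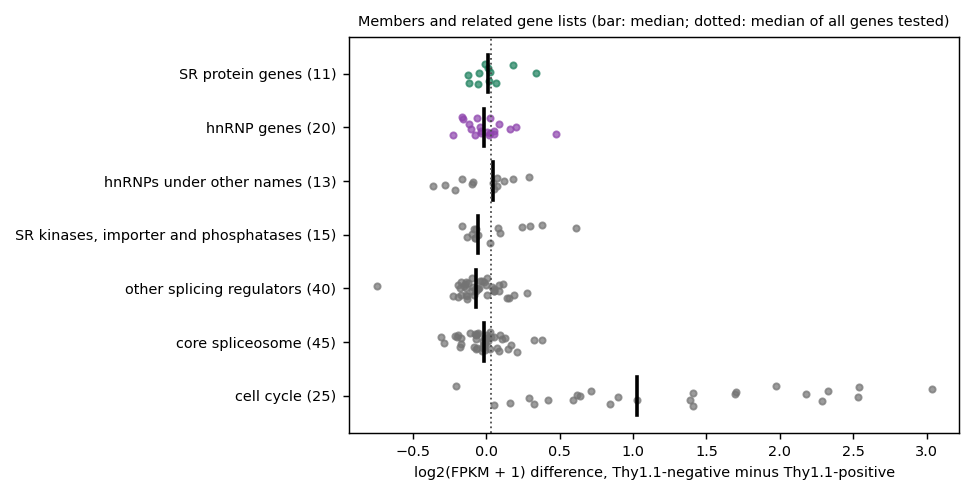
Difference in log2(FPKM + 1), Thy1.1-negative minus Thy1.1-positive, of each gene averaging 1 FPKM or more in the SR and hnRNP families and in related lists, with the number of genes in brackets, the median as a bar and the median of all genes tested as a dotted line. The splicing lists have medians from -0.07 to 0.05, and the cell cycle list has a median of 1.03.

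Cell cycle genes differed between the same libraries by much more. Of 25 measured, 24 lay above 0 and 19 were higher by 1.5-fold in the negative library, with summed levels of 825 and 544 FPKM. Mki67, which encodes the proliferation marker Ki-67, had 13.5 and 1.49 FPKM and a ratio of 9.003 (7.95 to 10.2). By difference, Stmn1, a microtubule regulator, was highest with 53.9 and 5.70 FPKM and a ratio of 9.45 (7.53 to 12.003), and Tk1, a thymidine kinase, lowest with 24.6 and 28.6 FPKM and a ratio of 0.861 (0.762 to 0.971). What part dividing cells have in the values of Hnrnpll, Srsf1 and the other members was not tested.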

How the data were processed

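The authors deposited 1 table of FPKM per gene, with a column for each population. Its column names carry a P or an N after Thy1, taken here to mean with and without Thy1.1. The NEBNext Ultra kit was used on 3 µg of RNA a library, as the labels' protocols say. Bowtie2 2.2.3, TopHat2 2.0.12, HTSeq 0.6.1 and build mm9 are named in the submitters' processing notes; their settings are not stated in the sources used here. Gene symbols came from GENCODE M21, on another build, for 40254 of 41592 IDs.

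No count model was used. Reads were recovered as whole numbers that fit both FPKM values of a gene, the ratio of the library totals and a length of whole bases, to a tolerance of 2e-12, for all 23442 genes above 0 in both libraries; this was tested on simulated data. Intervals were computed with scipy 1.17.1, those of a quotient of ratios from the Poisson variance of the log counts. Differences carry a pseudocount of 1, which understates the change of low genes. A call was 1.5-fold in genes that averaged 1 FPKM or more. Copies were found with blastn 2.17.0.

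The rule for named genes gave full values to the 6 highest and 6 lowest differences, the 6 most abundant genes of each family, 7 set members, the ends of each related list at a mean of 5 FPKM or more, and Ptprc, Ptbp1, Pkm and Mki67; the other members were then described as well. Members and lists were chosen with earlier results of these data known. Coding length and protein composition, which the design also listed, were not analysed here. Alternatives were pseudocounts of 0.1 and 5, other filters on low values, other fold limits, 4 rescalings, and smaller read numbers; the limit of 25% among genes averaging 20 FPKM, the level per longest transcript, the pairs and the count at 200 FPKM were added after the values were seen.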

Additional observations from a re-analysis of the deposited data

Results flagged for a closer look

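Hnrnpa1l2-ps, a processed pseudogene row that the naming rule leaves out, held 14 reads at 0.782 FPKM in the negative library and 19 reads at 1.06 FPKM in the positive one. It is listed because both counts exceed the limit of 3 reads that a count of 0 allows, in a row that no comparison used. The ratio was 0.739 (0.343 to 1.56). Whether these reads came from this locus or from Hnrnpa1 was not tested.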

How the results depend on the processing

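With pseudocounts of 0.1 and 5, without a filter, with a filter at 5 FPKM, under a 2-fold rule, and under 3 of the 4 rescalings, no member was called. With the limit at 25%, over all genes or over those averaging 20 FPKM or more (chosen after seeing the data), 2 members were higher and none lower. The 4th rescaling, to equal upper quartiles of the values above 0, moved the median of all genes by 0.23, to 0.26, and put every member above 0; 2 members then passed 1.5-fold, Hnrnpll at 0.73 and Srsf1 at 0.59. The medians became 0.26 for the SR and 0.24 for the hnRNP genes, 0.004 and -0.02 from the median of all genes. The SR median lay below 0 under the other 3 rescalings, down to -0.03. The sign turned for 15 members with equal upper quartiles, for 2 with equal sums, and for 7 each with the median gene at 0 and without the 100 highest genes in the sum, so the direction of every member below 0, and of some above it, depends on the scaling. With the smallest whole numbers in the ratio of reads, the intervals of 3 members came to hold 1, Hnrnpa2b1, Hnrnpk and Hnrnpr. Of these, only the numbers of Hnrnpr give a length of whole bases. In the order of levels, 8 of the 10 highest members were shared with the order per longest transcript. No paired analysis was possible because each population is 1 library. Depth limits Srsf12 most.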
